A study of Rattus norvegicus with 4 samples.

Results

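Potassium channel genes were followed in RNA-Seq libraries of a pair of clones of PC12, a catecholamine-secreting cell line from a rat pheochromocytoma. The members are all genes of the count files whose name starts with Kcn, 81 of 25810 genes in all. At least 20 reads over the 4 libraries were found for 45 of them, which are described here, while 21 had from 1 to 19 reads and 15 had none. The lowest sums above this limit were those of Kcnn2 (31 reads), Kcnj13 and Kcnj9 (35 reads each), and the highest below it that of Kcnn4 (17 reads). The row KCNG2_RAT, spelled in capitals, does not meet this rule and is given apart.

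The clone wtPC12 (PC12 cells labelled wild type, with low levels of the repressor REST) and the clone hrPC12 (labelled high REST) were each sequenced in 2 libraries. The labels name no treatment of either clone, and the former name of hrPC12 was PC12-27. hrPC12 arose spontaneously within the PC12 line. Low and high REST thus stand for a single clone each, and the effect of REST cannot be told apart from whatever else distinguishes them. Nothing in the labels says that the 2 libraries of a clone came from separate cultures, so p values measure the spread between libraries, which may be technical.

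Potassium channels let potassium leave the cell along its gradient and thereby hold or restore the negative membrane potential. Voltage-gated families (such as Kcna, Kcnc, Kcnd, Kcnh and Kcnq) open upon depolarization and shape the action potential, inward rectifiers (Kcnj) and 2-pore channels (Kcnk) carry current near rest, and the Kcnm, Kcnn and Kcnt families respond to intracellular calcium or sodium. In chromaffin cells and in PC12 cells these currents set the firing that drives catecholamine release. Many neuronal ion channel genes are known to carry RE-1, the DNA element bound by REST.

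Reads on genes numbered from 20975027 to 27246502 per library, and values below are raw reads or counts normalized with edgeR's TMM factors. For Rest itself the normalized counts were 43.0 and 132 in wtPC12 and 964 and 915 in hrPC12 (log2 FC 3.42, standard error 0.57), and its adj. p value of 0.0115 (edgeR, Benjamini-Hochberg) missed the threshold of 0.01 used below. The chromaffin character of the cells was checked with 10 marker genes. Of the 8 that could be tested 7 were lower in hrPC12 past the thresholds given below (5.46% of all tested genes were), among them Th and Dbh of catecholamine synthesis and the granin genes Chgb and Scg2. The exception was Ddc, also of catecholamine synthesis, with means of 22518 normalized counts in wtPC12 and 27138 in hrPC12 (log2 FC 0.27, adj. p value 0.322, edgeR). The summed normalized counts of the list ranged from 907326 to 1072940 in wtPC12 and from 45801 to 50455 in hrPC12. In the opposite direction, 6 of 7 mesenchymal markers were higher in hrPC12 (4.84% of all tested genes were), with sums from 16295 to 18063 in wtPC12 and from 95415 to 100159 in hrPC12. These sums rest on different genes, in wtPC12 mostly on Thy1, which was not called and had means of 17058 in wtPC12 and 8603 in hrPC12 (log2 FC −0.99, adj. p value 0.0137, edgeR), and in hrPC12 mostly on the collagen gene Col3a1, with means of 94.5 and 85972. Of 4 muscle genes tested, the factors Myod1 and Myog were higher, whereas Tagln (log2 FC 1.12, adj. p value 0.111, edgeR) and Des (log2 FC −1.99, adj. p value 0.0527, edgeR) were not called. White blood cell markers summed to 33.0 and 34.9 normalized counts in wtPC12 and 84.7 and 94.1 in hrPC12, with Ptprc at 0 in wtPC12 and Itgam at 0 in hrPC12. Neuron markers summed to 6561 and 4737 in wtPC12 and 1639 and 1801 in hrPC12. Of these, Tubb3 was called lower (log2 FC −2.02, adj. p value 0.00542, edgeR), whereas Map2 overlapped between the clones (log2 FC 0.47, adj. p value 0.533, edgeR). Since the RNA is from bulk cultures, fewer cells that express a gene and less of its RNA per cell cannot be told apart. The part of these marker differences in the channel results was not tested.

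Of the 45 members 40 could be compared, and the other 5 had no read in 1 of the clones. Potassium channel genes were lower in hrPC12 more often than higher. Past the thresholds of an adj. p value under 0.01 and a log2 fold change (FC, hrPC12/wtPC12) past 2, 10 members were lower, 25.0% of those tested against a background of 5.46% of all 13726 tested genes. Only Kcnd2 was higher past both, 2.50% against a background of 4.84%. This filter leaves out members without reads in 1 clone. When every gene with at least 1 read was tested, 16 of 45 members were lower (background 5.31%) and 5 of 45 higher (background 6.12%). That background covers 18416 genes, whereas only 14163 genes of the series reach the limit of 20 reads that all 45 members meet. The member shares of this second test are therefore not on the same read limit as its background, and no comparison is drawn. In either direction 10.3% of all tested genes were called. With an adj. p value under 0.05 alone, 20 members were lower and 3 higher, where the background is 16.3% and 16.1%. The median log2 FC of the 40 members was −1.19, beside 0.06 for all tested genes. In 24 members both hrPC12 libraries lay below both wtPC12 libraries (60.0%, background 35.6%), in 10 both lay above (25.0%, background 37.9%), and 6 overlapped. These shares describe the family and carry no test. Of all tested genes 73.5% did not overlap in either direction, a share to set beside each mention of non-overlap below. Without wtPC12 replicate 2, edgeR's test called none of the 13726 genes, members included, although 30 members had an unadjusted p under 0.05. The members called with all 4 libraries kept their direction in that fit, with log2 FC past 2 and adj. p values from 0.0130 for Kcnj12 to 0.0460 for Kcnk2 (edgeR). The fit on every gene, used below for members without reads in 1 clone, was not repeated with libraries left out. Those 5 members are counted among its 16 lower and 5 higher, and they met the limit of 20 reads through 1 clone alone. Their adj. p values in that fit describe the same contrast as their reads and are no separate support.

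**Figure D1:**
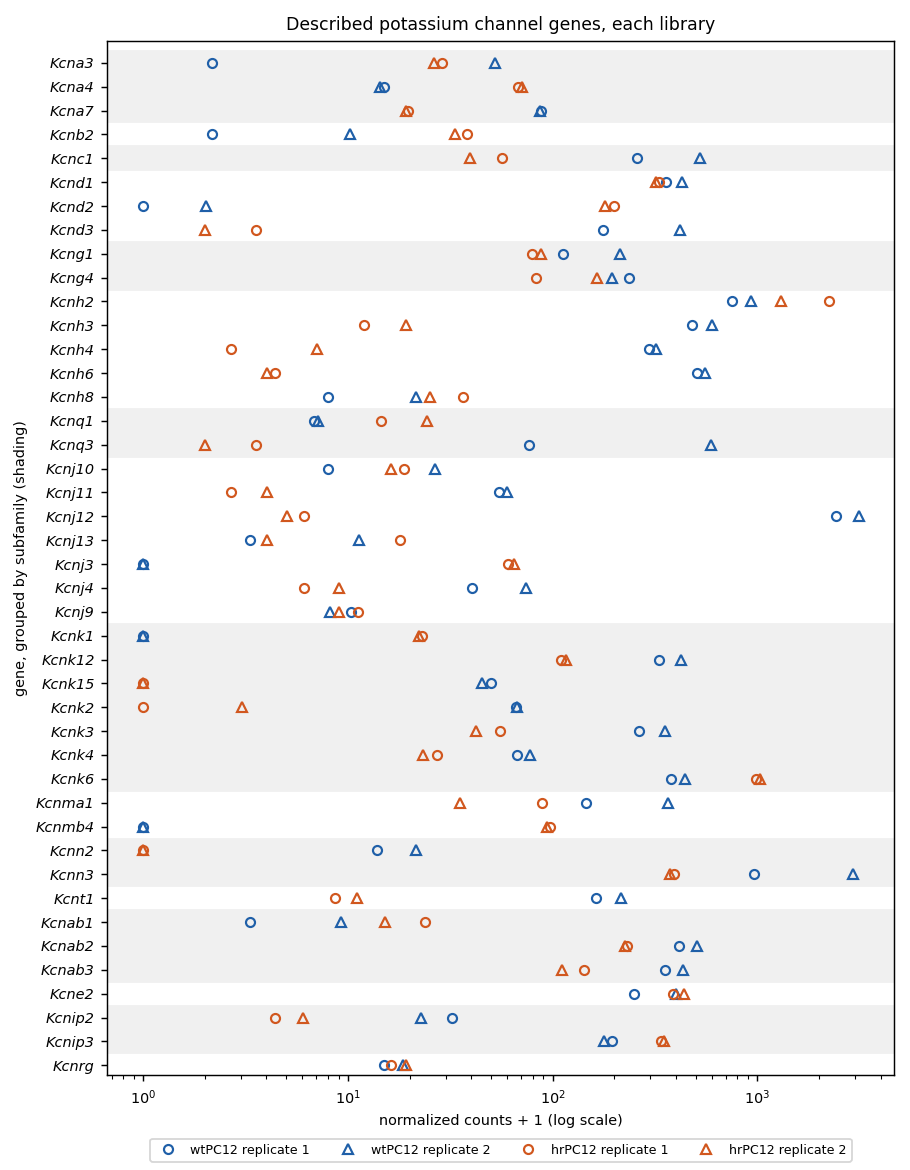
Normalized counts plus 1 (log scale) of 43 described members in each of the 4 libraries, with shading that separates subfamilies. Kcnj12 shows the widest gap among members read in both clones, with blue points at 2418 and 3126 and orange points at 5.08 and 4.05, while Kcnj3, Kcnk1 and Kcnmb4 have both blue points at 0 reads.

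**Figure D2:**
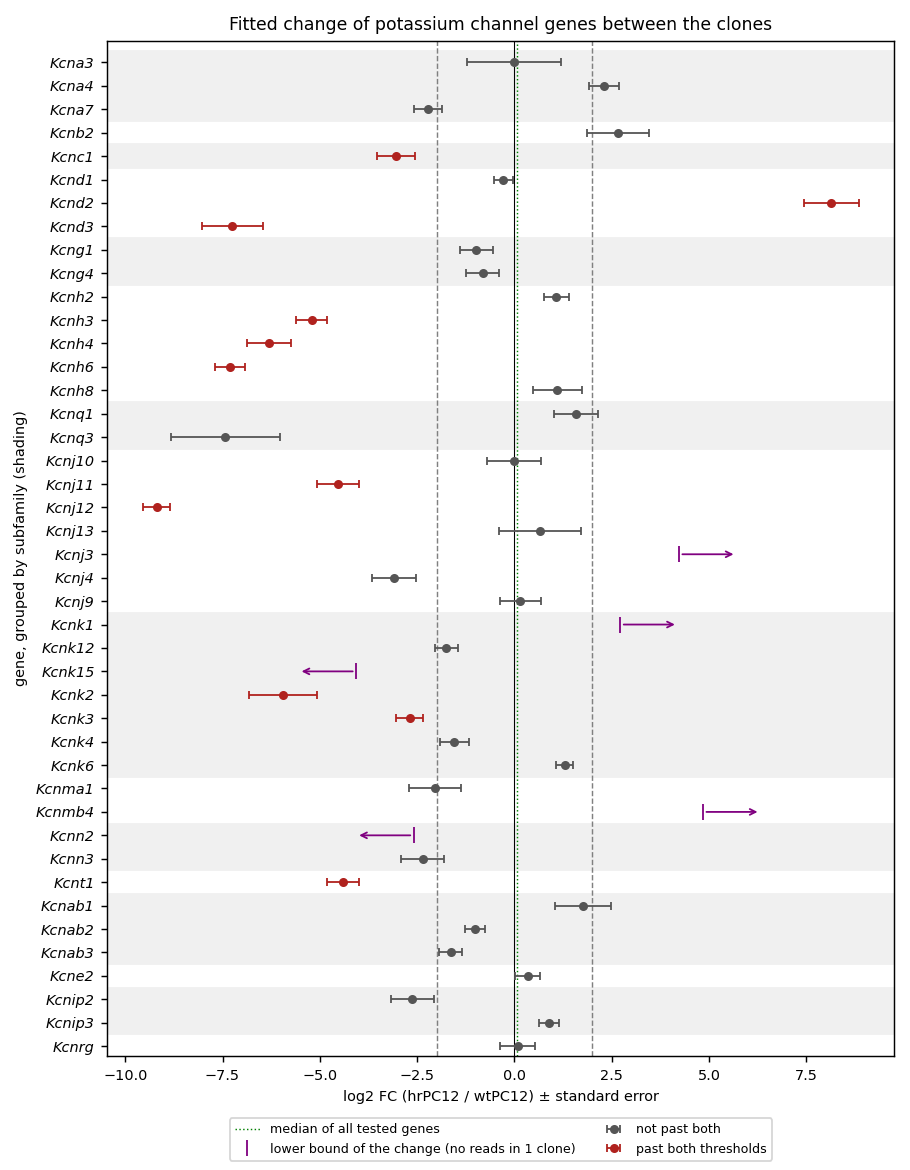
Log2 FC (hrPC12/wtPC12) of 43 described members with its standard error from edgeR's fit, with dashed lines at 2 in either direction and arrows that start at the lower bound for the 5 members without reads in 1 clone. The 10 members past both thresholds on the left come from the Kcnc, Kcnd, Kcnh, Kcnj, Kcnk and Kcnt subfamilies, and Kcnd2 stands alone on the right.

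Inward rectifiers gave the most extreme fall. Kcnj12, which codes for the strong inward rectifier Kir2.2, had 2079 and 3035 reads in wtPC12 and 6 and 4 in hrPC12. Both hrPC12 libraries lay far below both wtPC12 libraries, and hrPC12 kept 0.165% of the wtPC12 mean. The log2 FC was −9.20 (standard error 0.34, adj. p value 0.000261, edgeR), a 587-fold lower level, and was −9.41 without wtPC12 replicate 1. Kcnj11, the pore subunit of the ATP-sensitive channel that links metabolism to excitability, went from 46 and 57 reads to 2 and 3 reads. The normalized ratio of its pooled reads, wtPC12 to hrPC12, was 24.4 with a 95% interval of counting error from 10.1 to 76.8. It was called with a log2 FC of −4.52 (standard error 0.54, adj. p value 0.00416, edgeR). Without wtPC12 replicate 1 the log2 FC was −4.62 and the call was lost. Kcnj4, which codes for Kir2.3, a further strong rectifier, had 34 and 71 reads in wtPC12 and 6 and 8 in hrPC12. Its log2 FC of −3.09 (standard error 0.57) came with an adj. p value of 0.0157 in edgeR's test, and DESeq2, RLE factors, library totals and the fit on every gene called it.

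Not all Kcnj genes were lower. Kcnj3 codes for Kir3.1, a subunit of the channels that G proteins open after receptor activation. No read fell on it in either wtPC12 library, while hrPC12 had 70 and 63. It was at least 18.7-fold higher in hrPC12, a bound computed with 3 reads in each wtPC12 library, and was called with an adj. p value of 0.000459 when every gene with at least 1 read was tested (background 6.12% higher and 5.31% lower of 18416 genes). Kcnj9, the subunit Kir3.3 of the same channel family, had 8, 7, 12 and 8 reads, with overlap between the clones. Kcnj10 (Kir4.1, best known from glia) and Kcnj13 (Kir7.1, known from epithelia) also overlapped, with 6 to 25 and 2 to 20 reads per library.

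Within the Kcnh family, related to the ether-à-go-go channel of the fly, 3 of 5 tested members were lower past both thresholds (60.0%, background 5.46%). Kcnh6 (Kv11.2, a channel of the ERG type) had 436 and 540 reads in wtPC12 and 4 and 3 in hrPC12. The log2 FC was −7.31 (standard error 0.38, adj. p value 0.000478, edgeR), 159-fold lower, and the libraries of each clone lay close together. Kcnh4 (Kv12.3) had 253 and 309 reads against 2 and 6, a log2 FC of −6.31 (standard error 0.58, adj. p value 0.00192, edgeR), which was −7.44 without hrPC12 replicate 2 and −5.63 without hrPC12 replicate 1. Kcnh3 (Kv12.2) had 411 and 585 reads against 13 and 18, with a log2 FC of −5.21 (standard error 0.41, adj. p value 0.00124, edgeR). For all 3 genes the clones did not overlap (background 73.5% in either direction).

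Kcnh2 and Kcnh8 did not pass in either direction. Kcnh2, which codes for Kv11.1, the ERG channel of the heart and of secretory cells, had 647 and 900 reads in wtPC12 and 2651 and 1290 in hrPC12. Both hrPC12 libraries lay above, but they differed 1.72-fold from each other after normalization, and the log2 FC of 1.08 (standard error 0.32) had an adj. p value of 0.0559 in edgeR's test. The genes next to Kcnh2 in the RefSeq gene order of the assembly GRCr8 had higher counts in hrPC12 replicate 1 too, with a median log2 ratio to replicate 2 of 0.82 over 6 neighbours. The part of that regional difference in the value of Kcnh2 was not tested. Without hrPC12 replicate 1 the log2 FC was 0.64. Kcnh8 (Kv12.1) had 6 and 20 reads in wtPC12 and 42 and 24 in hrPC12 (log2 FC 1.10, adj. p value 0.224, edgeR), and the value became 0.50 when wtPC12 replicate 1 was left out and 2.09 when replicate 2 was.

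The promoter of Kcnh6 is shown because it alone among the members with a RefSeq window holds the exact letters searched for both parts of the RE-1 element. RefSeq windows of GRCr8, from 250 bases before to 50 after the annotated start, were matched by symbol for 25 of the 45 members. The letters searched on both strands were CAGCACC, the left part of RE-1, and GGACAGC, the right part. In the classical element CAGCACCNNGGACAGC 2 bases separate the parts, and this full form was in none of the 25 windows and in 0.0328% of all 27457 windows. With up to 10 bases between the parts on 1 strand the pair was in Kcnh6 and in 0.106% of all windows. The left part alone was in 2 of the 25 (8%, all windows 6.91%) and the right part in 3 (12%, all windows 6.64%). A match is a description of the letters, and binding was not measured. Variants of these letters and sites outside the windows were not searched, so a window without a match does not show a lack of RE-1. Kcnj12, Kcnj11, Kcnh3 and Kcnk3, all called lower, had no window. The site in Kcnh6 starts 204 bases before the annotated start and has 7 bases between the parts. The 250 bases before the start, chr10:91449401-91449650 on the plus strand of GRCr8, read as follows with the parts in capitals.
Kcnh6: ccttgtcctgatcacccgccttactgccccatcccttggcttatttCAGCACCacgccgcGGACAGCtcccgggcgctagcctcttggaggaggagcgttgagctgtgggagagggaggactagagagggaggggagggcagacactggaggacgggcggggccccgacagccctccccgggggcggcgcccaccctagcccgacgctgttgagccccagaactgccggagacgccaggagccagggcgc

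The Kcnd subfamily, whose products Kv4.1 to Kv4.3 carry the fast inactivating A-type current, contained members called in both directions. Kcnd3 (Kv4.3) had 150 and 407 reads in wtPC12 and 3 and 1 in hrPC12. The log2 FC, −7.25, had a standard error of 0.78 and an adj. p value of 0.00299 (edgeR), with wtPC12 165-fold above hrPC12 (95% interval of counting error 64.1 to 608). Kcnd2 (Kv4.2) showed the reverse, with 0 and 1 reads in wtPC12 and 234 and 177 in hrPC12. The log2 FC, 8.14, had a standard error of 0.71 and an adj. p value of 0.00150 (edgeR), and the ratio of hrPC12 to wtPC12 was 347 with an interval from 61.9 to 13729, wide because it rests on a single wtPC12 read. Leaving out wtPC12 replicate 1 gave a log2 FC of 7.33 for Kcnd2, whereas without wtPC12 replicate 2 no wtPC12 read is left and no fold is given. Leaving out wtPC12 replicate 2 or hrPC12 replicate 1 gave −6.48 or −8.02 for Kcnd3. Kcnd1 (Kv4.1) lay between them, with 307 and 416 reads in wtPC12 and 389 and 314 in hrPC12. After normalization both hrPC12 libraries were below both wtPC12 libraries, with a log2 FC of −0.28 (standard error 0.25, adj. p value 0.423, edgeR).

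Several proteins assemble with Kv4 channels. Kcnip2 and Kcnip3 code for calcium-binding KChIP subunits, which control surface expression and inactivation of Kv4 channels. Kcnip2 had 27 and 21 reads in wtPC12 and 4 and 5 in hrPC12 (log2 FC −2.63, standard error 0.56, adj. p value 0.0222, edgeR). Kcnip3, whose product is known also as the transcriptional repressor DREAM, had 167 and 172 reads in wtPC12 and 401 and 346 in hrPC12 (log2 FC 0.89, standard error 0.26, adj. p value 0.0527, edgeR). In both genes the clones did not overlap (background 73.5% in either direction), and neither passed the threshold of 0.01. Dpp6, the transmembrane partner that speeds Kv4 gating, is not a Kcn gene and fell from 295 and 372 reads to 0 and 1 (log2 FC −9.27, standard error 0.69, adj. p value 0.00103, edgeR).

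**Figure D3:**
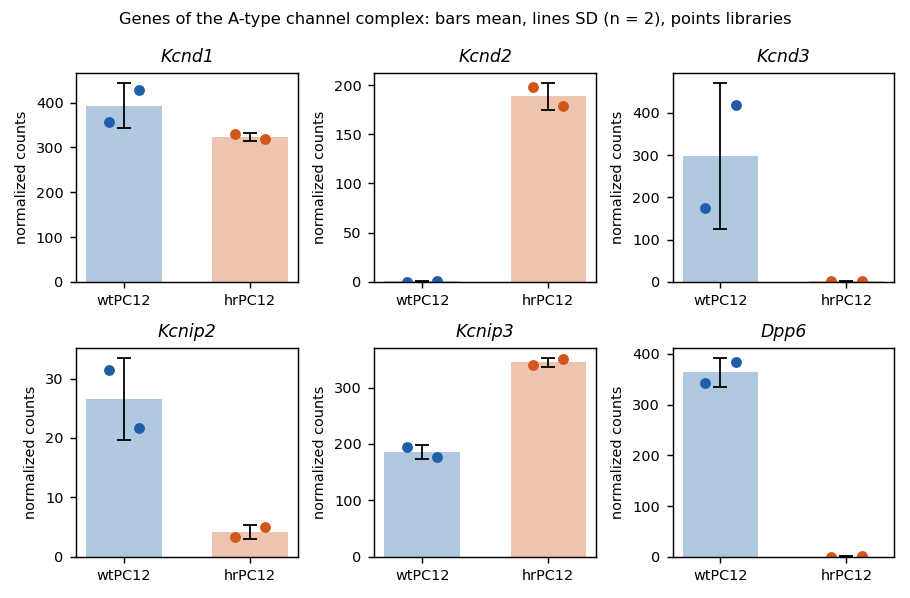
Normalized counts of the Kcnd genes, of Kcnip2 and Kcnip3 and of Dpp6 in the clones, with bars for the mean, lines for the SD (n = 2) and points for the libraries, each panel on its own linear scale from 0. Kcnd3, Kcnip2 and Dpp6 are low in hrPC12, Kcnd2 is near 0 in wtPC12, and Kcnd1 differs little between the clones.

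The promoter windows of Kcnd2 and Kcnd3 are set side by side because these paralogs moved in opposite directions. Neither holds the pair of RE-1 parts. Kcnd3 has the right part 182 bases before the start, shown in capitals, and that of Kcnd2 lies after the start, outside the stretch shown. The 250 bases before the start are chr2:195626066-195626315 for Kcnd3 and chr4:50742235-50742484 for Kcnd2, both on the plus strand of GRCr8. G and C make up 79.6% of the stretch in Kcnd3 and 64.0% in Kcnd2.
Kcnd3: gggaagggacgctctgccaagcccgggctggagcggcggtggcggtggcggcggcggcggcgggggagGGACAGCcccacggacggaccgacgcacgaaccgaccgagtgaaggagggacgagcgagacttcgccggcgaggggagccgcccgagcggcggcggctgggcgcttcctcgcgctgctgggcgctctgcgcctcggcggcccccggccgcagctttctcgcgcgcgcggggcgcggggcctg
Kcnd2: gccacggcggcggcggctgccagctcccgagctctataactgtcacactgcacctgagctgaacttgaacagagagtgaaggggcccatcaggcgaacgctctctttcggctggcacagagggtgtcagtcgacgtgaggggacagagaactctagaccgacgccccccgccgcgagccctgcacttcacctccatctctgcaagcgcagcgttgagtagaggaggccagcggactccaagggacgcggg
High G and C content was common in the family. Over the full windows the median was 65.7% in the 25 members (range 41.7 to 80.7%) and 52.3% in all 27457 windows, and CpG dinucleotides numbered 20 and 7 in the median. The 6 members called lower that have a window had a median of 68.8%.

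Kcnc1 codes for Kv3.1, a channel typical of neurons that fire at high rates, and was lower in hrPC12. It had 222 and 506 reads in wtPC12 and 66 and 38 in hrPC12. Its log2 FC of −3.04 (standard error 0.48) had an adj. p value of 0.00999 in edgeR's test, at the edge of the threshold, and 0.0101 with the legacy option of the fit off. Without wtPC12 replicate 2 the log2 FC was −2.45. The clones did not overlap, and wtPC12 replicate 2 was the highest library.

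Of the Kv1 genes, 3 reached 20 reads, and none passed both thresholds. Kcna4 codes for Kv1.4, the fast inactivating member of the group. It had 12 and 13 reads in wtPC12 and 79 and 69 in hrPC12 (log2 FC 2.31, standard error 0.39, adj. p value 0.0121, edgeR), and the libraries of each clone nearly coincided. Kcna7 (Kv1.7) mirrored it with 75 and 83 reads against 22 and 18, a log2 FC of −2.22 (standard error 0.37, adj. p value 0.0113, edgeR). Both genes passed the threshold of 0.01 when DESeq2 or RLE factors were used. For Kcna3 (Kv1.3, known from lymphocytes) the counts were 1, 50, 33 and 25, and no difference could be stated, since the log2 FC went from 0.00 to 4.38 without wtPC12 replicate 2. The Kv1 beta subunits, cytoplasmic proteins that modify inactivation, were not called. Kcnab2 had 357 and 490 reads against 272 and 222 (log2 FC −1.02, adj. p value 0.0379, edgeR). Kcnab3 had 304 and 419 against 167 and 109 (log2 FC −1.64, adj. p value 0.0154, edgeR). Neither overlapped between the clones (background 73.5% in either direction). Kcnab1 had 2 and 8 reads in wtPC12 and 27 and 14 in hrPC12 (log2 FC 1.76, adj. p value 0.113, edgeR), with a log2 FC of 1.13 without wtPC12 replicate 1 and 2.94 when replicate 2 was left out.

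Kcnb2 (Kv2.2, a slow delayed rectifier) had 1 and 9 reads in wtPC12 and 44 and 32 in hrPC12. Both hrPC12 libraries were above, with a log2 FC of 2.67 (standard error 0.80, adj. p value 0.0548, edgeR) that became 1.86 when wtPC12 replicate 1 was left out and 4.76 when replicate 2 was. The Kcng genes code for silent subunits that form channels only together with Kv2. Kcng1 (Kv6.1) had 96 and 207 reads against 92 and 86, and Kcng4 (Kv6.4) 203 and 189 against 97 and 162. Their log2 FC of −0.98 and −0.81 had adj. p values of 0.129 and 0.192 in edgeR's test. Leaving out wtPC12 replicate 1 or 2 gave −1.40 or −0.44 for Kcng1, and leaving out hrPC12 replicate 1 or 2 gave −0.39 or −1.43 for Kcng4. The row KCNG2_RAT, of the same group by its name, had 174 and 210 reads in wtPC12 and 0 and 2 in hrPC12 (log2 FC −7.63, standard error 0.79, adj. p value 0.00264, edgeR).

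Kcnq3 codes for a subunit of the M channel, which opens slowly near threshold and dampens repetitive firing. In wtPC12 65 and 578 reads were counted, in hrPC12 3 and 1, so wtPC12 was 191-fold above hrPC12 (95% interval of counting error 74.1 to 701). The clones did not overlap, yet the wtPC12 libraries differed 7.87-fold after normalization. The log2 FC of −7.42 (standard error 1.41) had a wide error and an adj. p value of 0.0167 in edgeR's test. It was −8.29 (adj. p value 0.00135, edgeR) when wtPC12 replicate 1 was left out and −5.28 (adj. p value 0.0259, edgeR) when replicate 2 was. Kcnq1, known from heart and epithelia, had 5 and 6 reads in wtPC12 and 16 and 23 in hrPC12. Both hrPC12 libraries were above (log2 FC 1.59, standard error 0.57, adj. p value 0.0849, edgeR).

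Among the 2-pore channels, which carry background current, 5 had reads in both clones and were tested. Kcnk2 and Kcnk3 were lower past both thresholds (40.0%, background 5.46%). Without overlap, 4 of the 5 lay lower in hrPC12 (background 35.6%) and Kcnk6 lay higher (background 37.9%). Kcnk2 (TREK-1, opened by stretch and lipids) had 56 and 64 reads in wtPC12 and 0 and 2 in hrPC12. The log2 FC, −5.95, had a standard error of 0.87 and an adj. p value of 0.00742 (edgeR), and the ratio of the clones was 71.1 with a 95% interval of counting error from 19.3 to 594. The call was lost without wtPC12 replicate 1 (adj. p value 0.0184), and the log2 FC was −4.93 without hrPC12 replicate 1. Without hrPC12 replicate 2 no hrPC12 read of Kcnk2 is left, and the fitted value is no measured fold. Its relative Kcnk4 (TRAAK) had 57 and 74 reads against 31 and 22, a log2 FC of −1.55 (standard error 0.37, adj. p value 0.0326, edgeR). Kcnk3, which codes for the acid-sensitive TASK-1, had 226 and 344 reads in wtPC12 and 64 and 41 in hrPC12 (log2 FC −2.68, standard error 0.35, adj. p value 0.00551, edgeR). Like Kcnh2 it has neighbours with higher counts in hrPC12 replicate 1 (median log2 ratio 0.81 over 6 genes), and without that library its log2 FC was −2.89.

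Kcnk15 (TASK-5) had 42 and 43 reads in wtPC12 and none in hrPC12, so it was at least 16.7-fold lower, and was called when every gene with reads was tested (adj. p value 0.000689, edgeR). Kcnk12 (THIK-2) had 284 and 412 reads against 129 and 114, a log2 FC of −1.75 (standard error 0.29, adj. p value 0.0117, edgeR). Kcnk6 (TWIK-2) had 325 and 430 reads in wtPC12 and 1164 and 1016 in hrPC12 (log2 FC 1.29, standard error 0.22, adj. p value 0.0125, edgeR), and Kcnk1 (TWIK-1) had none in wtPC12 and 26 and 21 in hrPC12. Kcnk1 was at least 6.57-fold higher, with an adj. p value of 0.00373 (edgeR) when every gene with reads was tested.

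Among channels gated by internal ions and read in both clones, only Kcnt1 passed both thresholds in the main fit. Kcnt1 (Slack), a sodium-activated channel that follows bursts of spikes, had 139 and 209 reads in wtPC12 and 9 and 10 in hrPC12. The log2 FC, −4.40, had a standard error of 0.42 and an adj. p value of 0.00217 (edgeR). For Kcnn3 (SK3, a small-conductance calcium-activated channel) 829 and 2852 reads stood against 461 and 368, a log2 FC of −2.36 (standard error 0.55, adj. p value 0.0304, edgeR). DESeq2, RLE factors and the fit on every gene called Kcnn3. Leaving out wtPC12 replicate 2 gave −1.34, and leaving out replicate 1 gave −2.98, a call. Kcnn2 (SK2) had 11 and 20 reads in wtPC12 and none in hrPC12, at least 5.99-fold lower (adj. p value 0.00669, edgeR, when every gene with reads was tested).

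The BK channel is opened jointly by calcium and voltage. Kcnma1, its pore gene, had 124 and 354 reads in wtPC12 and 104 and 34 in hrPC12. Each clone had 1 library more than 2.5-fold above the other, and the log2 FC of −2.05 (standard error 0.66) had an adj. p value of 0.0693 in edgeR's test, with values from −2.88 to −1.23 when 1 library was left out. Kcnmb4, the beta subunit that prevails in neurons, had no read in wtPC12 and 113 and 92 in hrPC12. It was at least 28.7-fold higher (adj. p value 0.000215, edgeR, when every gene with reads was tested). Of the remaining accessory genes, Kcne2 (215 and 388 reads in wtPC12, 459 and 434 in hrPC12) and Kcnrg (12 to 18 reads per library) overlapped between the clones.

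Many channel genes also differed between the wtPC12 libraries. Replicate 2 had the higher normalized count in 34 of the 40 tested members (85.0%), compared with 47.1% of all tested genes. The same held for 15 of 18 tested genes (83.3%) in the list of channel partners described below. Among the 28 members with at least 50 normalized counts in wtPC12 this held for 25 (89.3%, all such genes 46.5%), and 5 of them had more than a 2-fold excess (17.9%, all such genes 8.04%). These 5 were Kcnq3 (7.87-fold), Kcnn3 (3.05-fold), Kcnma1 (2.53-fold), Kcnd3 (2.40-fold) and Kcnc1 (2.02-fold). Rest itself differed 3.06-fold in the same direction, while the 8 tested chromaffin markers were lower in replicate 2, with ratios from 0.655 for Th to 0.929 for Phox2a. Over the adjacent genes the median log2 ratio of replicate 2 to replicate 1 was 0.30 for Kcnq3, −0.03 for Kcnn3, −0.12 for Kcnma1, −0.13 for Kcnd3 and −0.03 for Kcnc1, and the highest among the 40 members was 0.38, next to Kcnh8. By contrast, Kcnj12, Kcnh6, Kcnk2 and Kcnj11 differed by at most 1.29-fold between the wtPC12 libraries. Between the hrPC12 libraries the median ratio of the members was 1.04. The part of the difference between the wtPC12 libraries in the channel results was not tested beyond leaving out each library.

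**Figure D4:**
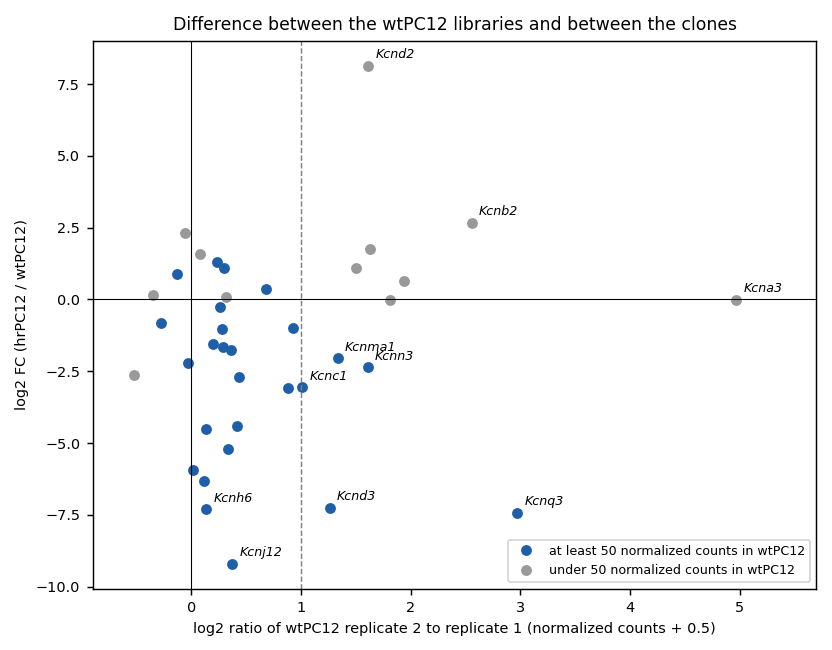
Log2 FC between the clones against the log2 ratio of wtPC12 replicate 2 to replicate 1 (normalized counts plus 0.5) for 38 tested members, with the dashed line at a 2-fold excess and the offset chosen for display. Most points lie right of 0. Among members with at least 50 normalized counts in wtPC12, Kcnq3, Kcnn3, Kcnma1, Kcnd3 and Kcnc1 are past the dashed line, and Kcnj12 and Kcnh6 lie near 0 with large changes between the clones.

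A list of 28 genes outside the Kcn names, for proteins that bind potassium channels or carry related currents, gave 18 tested genes. Past both thresholds, 5 of these were lower (27.8%, background 5.46%) and 1 higher (5.56%, background 4.84%). The median log2 FC of the list was −0.79. The HCN genes code for the hyperpolarization-activated cation channels that oppose potassium currents near rest. Hcn3 fell from 663 and 1169 reads to 45 and 31 (log2 FC −4.82, standard error 0.37, adj. p value 0.00120, edgeR) and Hcn2 from 2398 and 3339 to 547 and 511 (log2 FC −2.67, standard error 0.21, adj. p value 0.00129, edgeR). Dlg4, the scaffold PSD-95 that clusters Kv1 and Kir2 channels, had a log2 FC of −2.67 (standard error 0.25), and Cntn2, an adhesion protein of Kv1 clusters on axons, −2.13 (standard error 0.33). Dpp6 was the remaining gene called lower. Ank3, the ankyrin that anchors Kcnq and sodium channels at the axon initial segment, rose from 271 and 549 to 5287 and 4492 reads (log2 FC 3.35, standard error 0.33, adj. p value 0.00247, edgeR).

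In the RefSeq annotation of GRCr8, 8 of the 45 members overlap another protein-coding gene model, among them the called members Kcnd2 (with Kcnd2l1), Kcnh3 (with Mcrs1) and Kcnk2 (with an unnamed LOC gene), and Kcnk15 (with Rims4). The strand setting of the counting is not given in the sources used here, so reads of such neighbours cannot be told apart with certainty.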

How the data were processed

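RNA of the clones was sequenced by the authors as paired-end reads on an Illumina HiSeq. The submitters' processing notes name the build rn4, TopHat2 2.0.4, HTSeq 0.5.3 and DESeq 1.9.12. The authors deposited raw read counts per gene and library, which were used here without change. Each file ends with totals of reads given to no gene, which were left out, so that 37.9 to 41.3% of its reads remained. A deposited table of the authors' DESeq comparison holds means, fold changes and p-values and was not used.

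The test is edgeR 4.0.16's quasi-likelihood test (R 4.3.3, TMM factors, legacy fit, common dispersion 0.0745, p adjusted by Benjamini-Hochberg across the tested genes), used instead of DESeq. Following the study's filter, a gene was tested if it had reads in each clone and a mean of at least 5 normalized counts. The standard error is the absolute log2 FC before shrinkage divided by the square root of its F statistic. The printed log2 FC is shrunk by edgeR's prior count of 0.125. Members with no reads in 1 clone were given as bounds against 3 reads per library. Those with at most 3 reads per library in 1 clone have exact (Clopper-Pearson) intervals for the normalized ratio of the reads pooled by clone. The intervals cover counting error only, because reads were pooled by clone and the spread between libraries does not enter. Molecular identifiers were not used. The bounds rest on the chosen floor of 3 reads per library and carry no interval. The smallest 2-sided p of an exact permutation test with these libraries is 0.333. Members and lists were chosen with earlier results of these data known. The named-gene rule covers all members with at least 20 reads, with full values for called members, members at 3 reads or fewer in 1 clone, and members with an adjusted p under 0.05 in a subfamily with a called member. Promoters were taken from RefSeq (GRCr8, not the build of the counts), and protein sequences were not used here. In counts simulated for 13603 genes with 200 changed by a log2 FC of 4, edgeR found 200 and made 1 false call. DESeq2 1.42.0 found 200 and made 0 false calls, and glmTreat found 188. Recovery was not measured apart for genes near 0 reads in 1 clone or with unequal libraries within a clone. The simulation therefore cannot decide how reliable the calls of such members are. The values of a few genes, 2 members among them, are in the totals but are not reported here. The closing section gives the alternatives.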

Additional observations from a re-analysis of the deposited data

How the results depend on the processing

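The counts of called members moved with the setting more than the direction of the named genes did. Of the 10 members lower and 1 higher, the glmTreat test of edgeR, whose null hypothesis is an absolute log2 FC of at most 2, left 6 lower, and the fit on every gene with at least 1 read, which also tests the 5 members without reads in 1 clone, gave 16 lower and 5 higher. Higher members numbered 5 with edgeR's filterByExpr and 2 with RLE factors, library totals alone or DESeq2. A looser adj. p value limit of 0.05, with the log2 FC threshold kept, also gave 2. With 1 library left out, where the lone library is assumed to vary like the others, from 0 to 14 members were lower and from 0 to 2 higher, and the zeros came without wtPC12 replicate 2, where no gene was called (edgeR) and 30 members had an unadjusted p under 0.05. In the partner list glmTreat left 2 lower and 0 higher, 2 were higher with every gene tested, and leaving out libraries gave 0 to 5 lower and 0 to 1 higher. The median log2 FC of the members stayed between −1.54 and −0.96 in all settings. The sign turned in 5 overlapping members: in Kcna3 (0.0217) and Kcnj10 (0.0373) with library totals alone, and with a library left out in Kcna3 (−0.98 to 4.38), Kcnj10 (−0.67 to 1.23), Kcnj13 (−1.05 to 2.08), Kcnj9 (−0.0232 to 0.31) and Kcnrg (−0.10 to 0.26). No paired analysis was possible because the labels of the clones share only the letter b. The depth limits members at or near 0 reads in 1 clone, whose folds are bounds or have wide counting intervals.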
